A study of Rattus norvegicus with 6 samples.

Results

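The genes described here encode the subunits of voltage-gated and related cation channels: rows of the deposited table whose name starts with Kcn, Cacn or Hcn, or is Scn with digits and a or b, or is Trpc, Trpm or Trpv with a digit. Of 20422 genes in the table, 150 matched, namely 87 potassium channel genes, 13 sodium channel genes, 26 calcium channel genes, 20 TRP genes and 4 Hcn genes. The 120 with a mean of at least 20 counts over the 6 libraries are described (69, 11, 20, 16 and 4 in the same order). The set is wider than voltage-gated channels. Besides the voltage-gated pores, the Kcn prefix takes in inward rectifiers, tandem-pore leak channels, channels gated by intracellular calcium or sodium, and auxiliary subunits, and the Cacng prefix takes in AMPA receptor partners.

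Poly(A) RNA had been sequenced from primary oligodendrocytes, cultured from rats at postnatal day 1. For 12 h the cells received 0.01 mM water-soluble cholesterol (3 libraries) or PBS (3 libraries), and the labels name no genetic change in either group. The labels do not tell whether replicates are different cultures or animals. The tests therefore see library-to-library variation, some or all of which may be technical. Such cholesterol is commonly carried by cyclodextrin, and libraries with the carrier alone were not analysed here.

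Voltage-gated channels are built around a pore subunit that opens as the membrane potential changes, and auxiliary subunits set how much of it reaches the surface and how fast it opens and closes. In the oligodendrocyte lineage the channel set is known to shift with maturation. Precursors carry delayed rectifier and transient A-type potassium currents, sodium currents and voltage-gated calcium entry, while mature cells are dominated by inward rectifiers that hold the resting potential and clear potassium around axons. TRP channels are weakly voltage-dependent cation channels that respond to lipids, oxidants, calcium stores or temperature, and Hcn channels open on hyperpolarization.

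Libraries held between 63769532 and 70878378 counts, and the first principal component of all genes tested separated the groups. Summed over markers of mature oligodendrocytes, deposited FPKM (fragments scaled for gene length and library size) lay between 6968 and 8042 after cholesterol and between 4264 and 4384 after PBS, with 8 of 9 tested markers higher. The corresponding sums were 750 to 870 and 914 to 929 for precursor markers (1 of 7 higher and 4 lower), 805 to 867 and 568 to 575 for astrocyte markers (7 of 10 higher and 2 lower), and 77.1 to 101 and 114 to 120 for microglial markers (1 of 10 higher and 7 lower). Neuron markers summed to 290 to 307 and 270 to 286 (1 of 12 higher and 0 lower) and endothelial and mural markers to 18.6 to 21.7 and 19.1 to 24.1 (3 of 8 higher and 3 lower). No marker in the table was at 0 in all libraries. In such bulk samples, fewer cells of a type and less RNA per cell cannot be told apart.

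After cholesterol, channel genes that changed were mostly higher. Of the 120, 40 were higher and 14 lower, and 66 did not pass, with edgeR's quasi-likelihood test at a Benjamini-Hochberg adjusted p under 0.05 over all 16182 genes tested. At an unadjusted p under 0.05, 61 of the 120 passed, beside 48.4% of all genes tested. Over all of those genes, 40.3% passed in either direction, 20.5% higher and 19.7% lower, against 45.0%, 33.3% and 11.7% of the channel genes. The share of channel genes that passed was therefore near the background, as was the share whose groups did not overlap (51.7%, against 52.3% of all genes tested). The median log2 fold change (cholesterol over PBS) was 0.22 for the 120 and 0.0053 for all genes tested. A rise of at least 2-fold was called for 13 of the 120 and a fall of at least 2-fold for 3. Over all 16182 genes tested, such calls numbered 349 (2.16%) and 234 (1.45%), not matched for level. A mean under 1 FPKM was found for 63 of the 120, beside 3750 of all genes tested. The 13 include Kcng4, Trpm1 and Scn4b. These reached the mean of 20 counts only through the cholesterol libraries, so their rises are not independent of that rule. Scaling each library to its median expressed gene gave 29 higher and 15 lower, and over all genes tested it took the higher share of calls to 39.1%, against 51.0% with TMM scaling. Leaving out PBS replicate 2 gave 23 higher and 9 lower, and leaving out PBS replicate 3 gave 25 higher. Of the 54 calls, 17 higher and 8 lower ones held under each of 14 alternatives, and none changed direction. The calls that ended when some library was left out are given with those libraries beside each gene named. Losses in the other settings are named for some genes only, and are counted for all calls at the end.

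**Figure D1:**
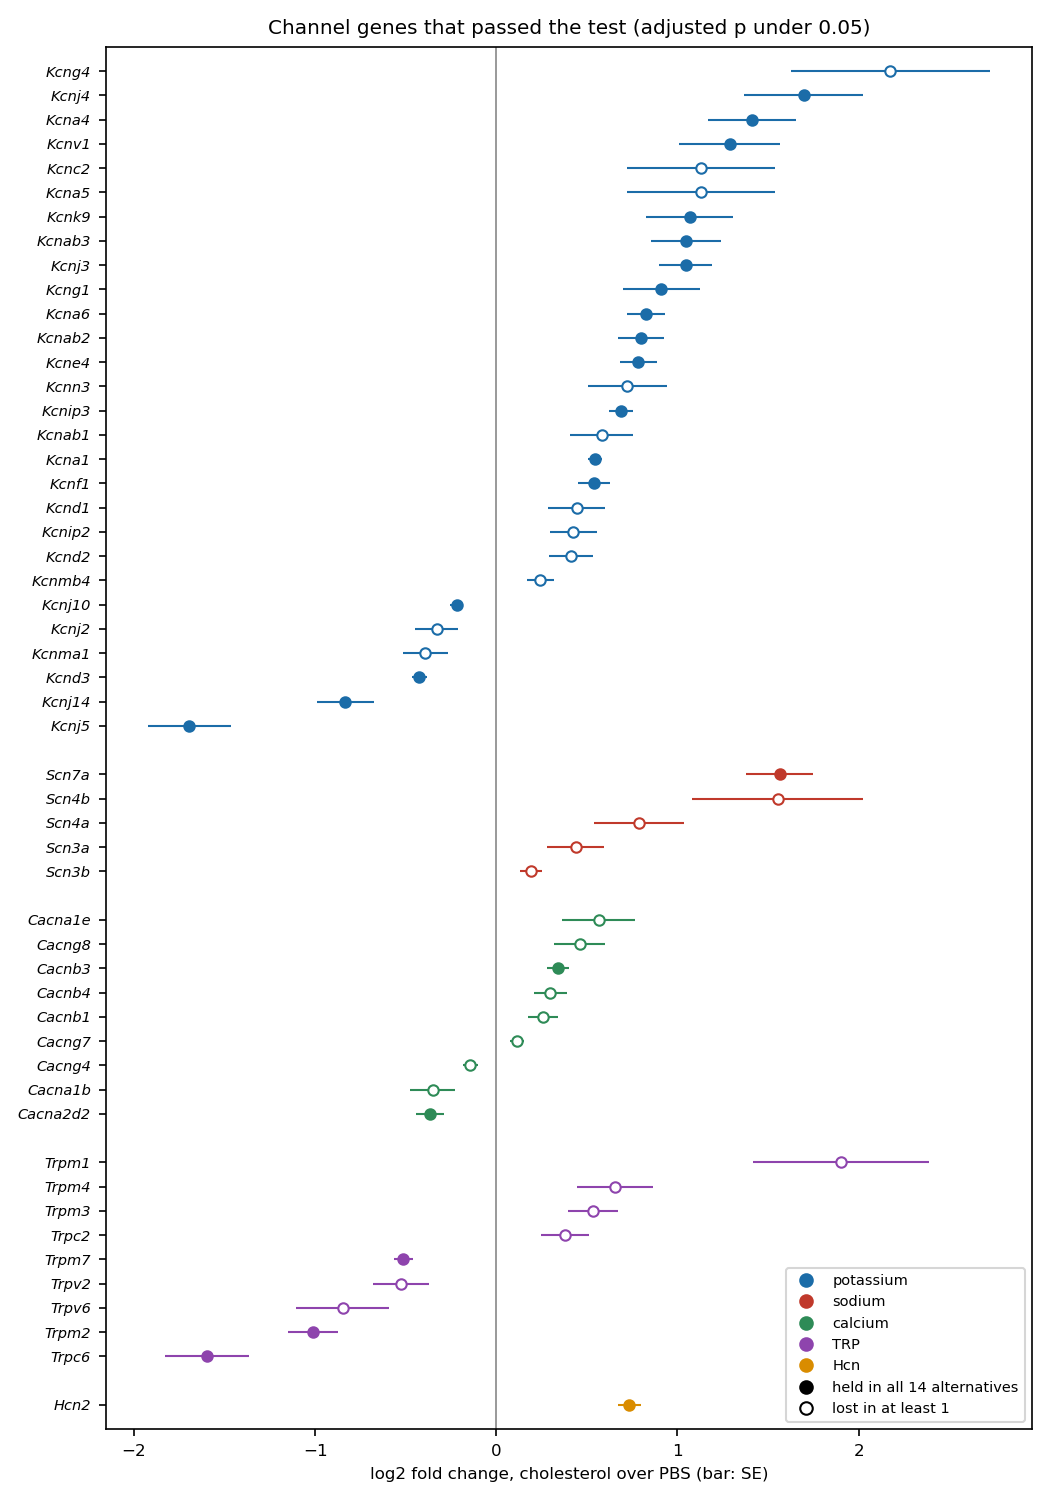
Log2 fold changes (cholesterol over PBS, horizontal axis) of 52 of the 54 channel genes that passed the test, by channel group, with bars for the SE. Filled points mark the 24 calls shown that held under all 14 alternatives; 38 genes lie to the right of 0 and 14 to the left.

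Mean levels lay between 0.0355 FPKM (Kcnj16) and 104 FPKM (Kcnj10), and a few genes made up most of the transcript. Only 18 of the 120 had a mean of at least 5 FPKM, 39 lay between 1 and 5 FPKM, and 63 lay under 1 FPKM. The first class had 9 higher and 4 lower, the middle class 10 and 6, and the last class 21 and 4. As shares, 50.0% of the first class, 25.6% of the second and 33.3% of the last were higher, beside 24.7%, 21.4% and 10.3% of all genes tested at those levels. Lower were 22.2%, 15.4% and 6.35% of the classes, beside 27.6%, 15.6% and 6.08% of all genes tested at those levels, so falls were near the background within each level. Kcnj10 alone held 35.5% to 36.7% of the summed FPKM of potassium channel genes after cholesterol and 42.7% to 43.4% after PBS, and the groups did not overlap. Without Kcnj10, the summed FPKM of that group was 168 to 173 after cholesterol and 146 to 150 after PBS. Cacng4 and Cacng7 led the calcium group, Trpm7 the TRP group, Scn3b the sodium group and Hcn2 the Hcn group.

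**Figure D2:**
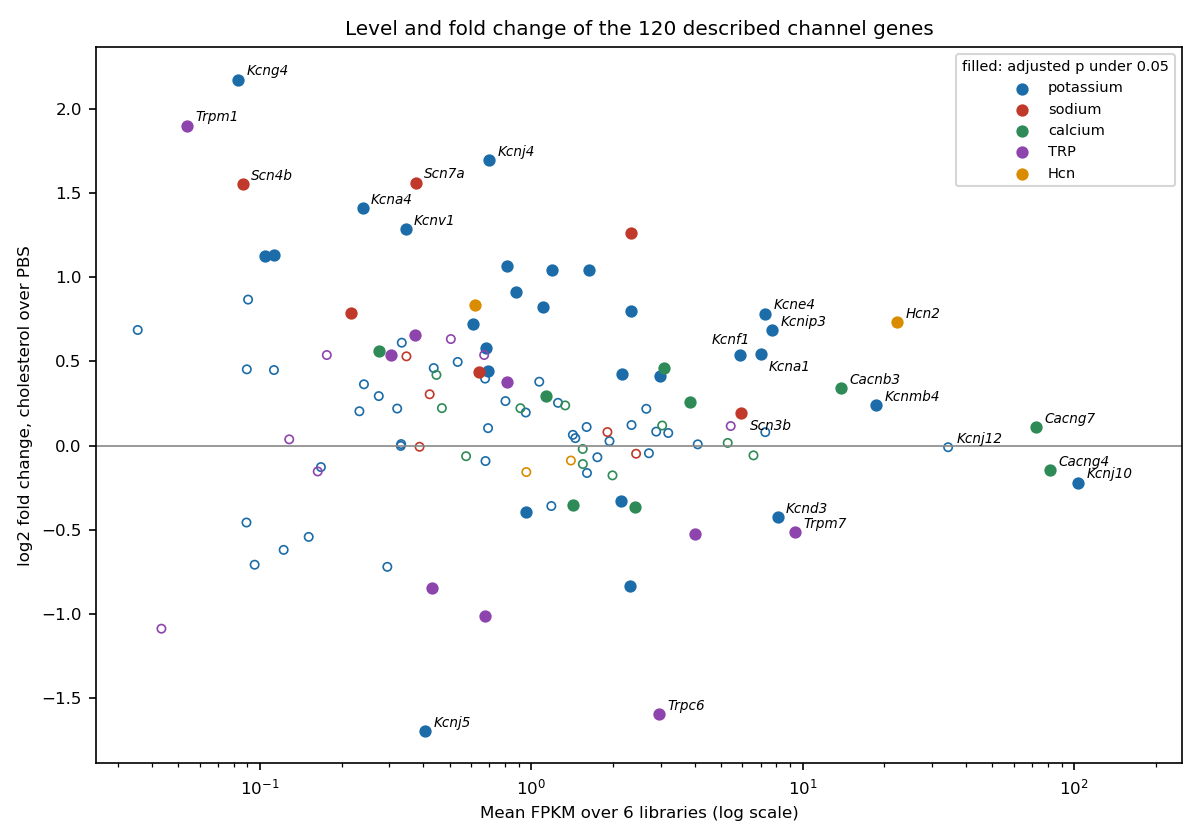
Mean FPKM over the 6 libraries (log scale, horizontal axis) against log2 fold change, cholesterol over PBS (vertical axis), for the 120 channel genes. Filled points passed the test; the points with fold changes beyond 1 on the log2 scale lie below 5 FPKM, while the most abundant gene, Kcnj10, sits just below 0.

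Among the 24 Kv pore genes described, 7 were higher, 1 was lower and 16 did not pass, with a median log2 fold change of 0.21. The share that passed was 33.3%, under the 40.3% of all genes tested (29.2% higher and 4.17% lower, against 20.5% and 19.7%). Of the 7, 4 belong to the Kcna family of Shaker-type channels. Kcna1, a delayed rectifier best known from the axon beside the node of Ranvier, stood at 73.1, 72.6 and 73.3 CPM in the cholesterol libraries, against 51, 50.4 and 48.7 CPM in the PBS libraries (counts scaled to library size with TMM). Every cholesterol library lay above every PBS library, log2 fold change 0.54 ± 0.041 (SE), adjusted p = 6.54e-06. Kcna6, another delayed rectifier of this family, stood at 12, 10.6 and 11.3 CPM in the cholesterol libraries, against 6.97, 6.14 and 6 CPM in the PBS libraries, again without overlap, log2 fold change 0.83 ± 0.10 (SE), adjusted p = 0.000149. Kcna4, the fast-inactivating A-type member, was low but showed the largest change of the family that held under all alternatives. It stood at 3.36, 3.61 and 3.96 CPM in the cholesterol libraries, against 1.93, 0.960 and 1.21 CPM in the PBS libraries, log2 fold change 1.41 ± 0.24 (SE), adjusted p = 0.0011. Kcna5, which in rodent precursors is linked to proliferation, had only 33, 58 and 36 counts in the cholesterol libraries, against 20, 24 and 17 in the PBS libraries. That call (log2 fold change 1.13, adjusted p = 0.0495) was lost without any 1 of the 6 libraries (adjusted p between 0.0717 and 0.208).

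Kcna5, Kcna1 and Kcna6 lie next to each other on the minus strand of chromosome 4, at 159350097 to 159357697, 159464188 to 159472682 and 159542615 to 159576189 in the deposited coordinates (the submitters' notes name rn6, but no genome was used to check this, and the deposited coordinates may be of another build). The pair at 194632196 to 194718400 on chromosome 2, Kcna3 and Kcna2, did not pass. Kcna3, another delayed rectifier of precursors and also of microglia, averaged 21.4 ± 1.79 CPM after cholesterol and 21 ± 0.964 CPM after PBS (SD, n = 3 each) (log2 fold change 0.027, adjusted p = 0.813). Kcna2, the usual partner of Kcna1 in axons, averaged 22.2 ± 1.41 CPM after cholesterol and 20.6 ± 1.09 CPM after PBS (log2 fold change 0.11, adjusted p = 0.258). All 3 neighbours on chromosome 4 rose, while neither of this pair passed.

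Promoters of Kcna5 and Kcna6 on chromosome 4 and, as abundant examples of genes that fell, of Kcnj10 and Trpm7 come from RefSeq (build GRCr8, 250 bases before the annotated start, read along the gene's strand). Capitals mark matches, on either strand, to letters known for factors of sterol control or of this lineage. These were TCACNCCAC (sterol regulatory element), ACAAAG (SOX factors), CTGGNAC (a loose form of the MYRF motif) and the DR4 repeat of liver X receptors.
Kcna5, chr4:161043810-161044059, minus strand: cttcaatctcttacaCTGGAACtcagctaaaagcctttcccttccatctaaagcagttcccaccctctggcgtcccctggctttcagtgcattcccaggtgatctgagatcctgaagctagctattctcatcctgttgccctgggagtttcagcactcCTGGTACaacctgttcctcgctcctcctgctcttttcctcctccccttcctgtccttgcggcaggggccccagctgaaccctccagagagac
Kcna6, chr4:161262353-161262602, minus strand: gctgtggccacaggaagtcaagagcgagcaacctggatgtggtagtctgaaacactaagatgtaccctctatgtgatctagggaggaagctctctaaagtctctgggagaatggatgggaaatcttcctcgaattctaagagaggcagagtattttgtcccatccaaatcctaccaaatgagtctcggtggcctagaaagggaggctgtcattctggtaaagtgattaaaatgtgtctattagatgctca
Kcnj10, chr13:87334260-87334509, plus strand: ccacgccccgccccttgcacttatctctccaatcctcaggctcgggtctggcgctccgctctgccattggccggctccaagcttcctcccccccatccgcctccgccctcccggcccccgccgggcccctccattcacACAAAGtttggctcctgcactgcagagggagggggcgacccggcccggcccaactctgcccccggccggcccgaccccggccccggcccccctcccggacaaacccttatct
Trpm7, chr3:134588114-134588363, minus strand: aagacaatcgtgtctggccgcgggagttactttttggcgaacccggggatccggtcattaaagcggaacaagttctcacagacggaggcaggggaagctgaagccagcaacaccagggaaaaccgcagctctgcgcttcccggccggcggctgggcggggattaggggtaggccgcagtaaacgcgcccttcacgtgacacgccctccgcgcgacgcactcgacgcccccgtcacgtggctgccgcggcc
Kcna5 held CTGGNAC at 2 places, Kcnj10 held ACAAAG once, and the other 2 windows held none of the letters searched. Of the 120 genes, 91 matched a RefSeq promoter by symbol. The sterol letters were in 0 of these 91, against 0.974% of all 33469 promoters in the RefSeq table, and the DR4 repeat was in 0, against 1 promoter in all. ACAAAG was in 3 of 30 promoters of genes that were higher, 2 of 13 of genes that were lower and 6 of 48 of the rest, beside 16.3% of all promoters. CTGGNAC was in 5 of 30, 2 of 13 and 9 of 48 in the same order, beside 14.8% of all promoters. A match is a description of letters, not a site.

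The other changes in Kv pore genes concerned the Kcnd family, the pores of A-type current, and Kcnc2. The family's members moved in different directions. Kcnd3, the most abundant, stood at 52.3, 49.5 and 51.2 CPM in the cholesterol libraries, against 68.1, 68.5 and 68.9 CPM in the PBS libraries, a fall without overlap, with log2 fold change -0.43 ± 0.042 (SE), adjusted p = 3.12e-05. Kcnd2 stood at 15.7, 18.2 and 15.5 CPM in the cholesterol libraries, against 12.9, 10.2 and 14.1 CPM in the PBS libraries, and was higher (log2 fold change 0.41, adjusted p = 0.0199). Kcnd1 was also higher (log2 fold change 0.44, adjusted p = 0.0441), as was Kcnc2, a fast delayed rectifier, at a mean of 39.5 counts (log2 fold change 1.13, adjusted p = 0.0483). The call of Kcnd3 held under all alternatives. That of Kcnd2 ended without cholesterol replicate 2 or PBS replicate 1 or 2 (adjusted p between 0.0518 and 0.0685). The Kcnd1 call ended without cholesterol replicate 2 or 3 or PBS replicate 1 or 3 (adjusted p between 0.0831 and 0.137). The Kcnc2 call ended without cholesterol replicate 1, 2 or 3 or PBS replicate 2 or 3 (adjusted p between 0.0543 and 0.188). Among Kv pore genes that did not pass, Kcnq3, an M-current subunit, averaged 8.7 ± 1.78 CPM after cholesterol and 8.32 ± 1 CPM after PBS (log2 fold change 0.064, adjusted p = 0.769).

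Modifier subunits carry no current alone and change the gating of other Kv pores. Their genes were higher in 4 of 6 (66.7%, against 20.5% of all genes tested), with 0 lower (against 19.7%). Kcnf1, the most abundant of them, stood at 20.2, 19.8 and 20.7 CPM in the cholesterol libraries, against 13.2, 12.8 and 15.7 CPM in the PBS libraries, log2 fold change 0.54 ± 0.087 (SE), adjusted p = 0.000731. Kcng1 averaged 3.79 ± 0.390 CPM after cholesterol and 2.01 ± 0.551 CPM after PBS (log2 fold change 0.91, adjusted p = 0.00613) and Kcnv1 2.1 ± 0.458 CPM after cholesterol and 0.858 ± 0.252 CPM after PBS (log2 fold change 1.29, adjusted p = 0.00402). These 3 calls held under all alternatives. Kcng4 showed the largest fold change of all 120 genes (log2 fold change 2.17, adjusted p = 0.00966). It had 22, 42 and 57 counts in the cholesterol libraries, against 5, 13 and 10 in the PBS libraries, and the call was lost without cholesterol replicate 3 (adjusted p = 0.0515). Kcng4 reached the mean of 20 counts only through the cholesterol libraries, so its rank is not independent of that rule. It was also tested only because of its cholesterol counts, so the direction of its call is not independent of that selection.

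Auxiliary subunits of potassium channels were higher in 7 of 12 (58.3%) and lower in 0, against 20.5% and 19.7% of all genes tested. The median log2 fold change of the 12 was 0.44. Kcnip3, a calcium-binding partner of Kcnd pores that is also known as the transcriptional repressor DREAM, stood at 32.9, 34.5 and 30.6 CPM in the cholesterol libraries, against 19.5, 20.8 and 20.5 CPM in the PBS libraries. The groups did not overlap, with log2 fold change 0.69 ± 0.066 (SE), adjusted p = 2.71e-05. Kcne4, a single-span subunit that damps several Kv channels, stood at 35.3, 29.9 and 25.9 CPM in the cholesterol libraries, against 18.5, 17.7 and 16.6 CPM in the PBS libraries, log2 fold change 0.78 ± 0.10 (SE), adjusted p = 0.000199. All 3 genes of the cytoplasmic Kv beta subunits rose. Kcnab2 stood at 8.99, 10.8 and 8.58 CPM in the cholesterol libraries, against 5.2, 6.15 and 4.96 CPM in the PBS libraries, log2 fold change 0.80 ± 0.13 (SE), adjusted p = 0.000696. Kcnab3 averaged 3.67 ± 0.450 CPM after cholesterol and 1.77 ± 0.353 CPM after PBS (log2 fold change 1.05, adjusted p = 0.00167) and Kcnab1 3.77 ± 0.207 CPM after cholesterol and 2.52 ± 0.497 CPM after PBS (log2 fold change 0.58, adjusted p = 0.0224). Kcnip2, another partner of Kcnd pores, rose by less (log2 fold change 0.43, adjusted p = 0.0237), and so did Kcnmb4, the beta subunit of the large-conductance calcium-activated channel (log2 fold change 0.24, adjusted p = 0.0239). The Kcnab1 call ended without cholesterol replicate 2 or PBS replicate 3 (adjusted p between 0.055 and 0.0671). The Kcnip2 call ended without cholesterol replicate 1 or 2 or PBS replicate 2 or 3 (adjusted p between 0.0654 and 0.082). The Kcnmb4 call ended without cholesterol replicate 2 or PBS replicate 1 or 3 (adjusted p between 0.0887 and 0.103). The pore of that large-conductance channel, Kcnma1, was lower, at 6.15, 5.58 and 5.79 CPM in the cholesterol libraries, against 8.37, 8.16 and 6.46 CPM in the PBS libraries (log2 fold change -0.39, adjusted p = 0.0282). It overlaps 1 other annotated gene, and the call was lost without cholesterol replicate 2 or 3 or PBS replicate 1 or 2 (adjusted p between 0.0645 and 0.107). Of the other 5 pore genes gated by intracellular calcium or sodium, 1 passed, the small-conductance channel Kcnn3 (log2 fold change 0.72, adjusted p = 0.0236). That call was lost without cholesterol replicate 1 or 2 or PBS replicate 2 (adjusted p between 0.0538 and 0.0807). Kcnn4, the intermediate-conductance channel of microglia and other immune cells, did not pass (log2 fold change -0.13, adjusted p = 0.848).

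**Figure D3:**
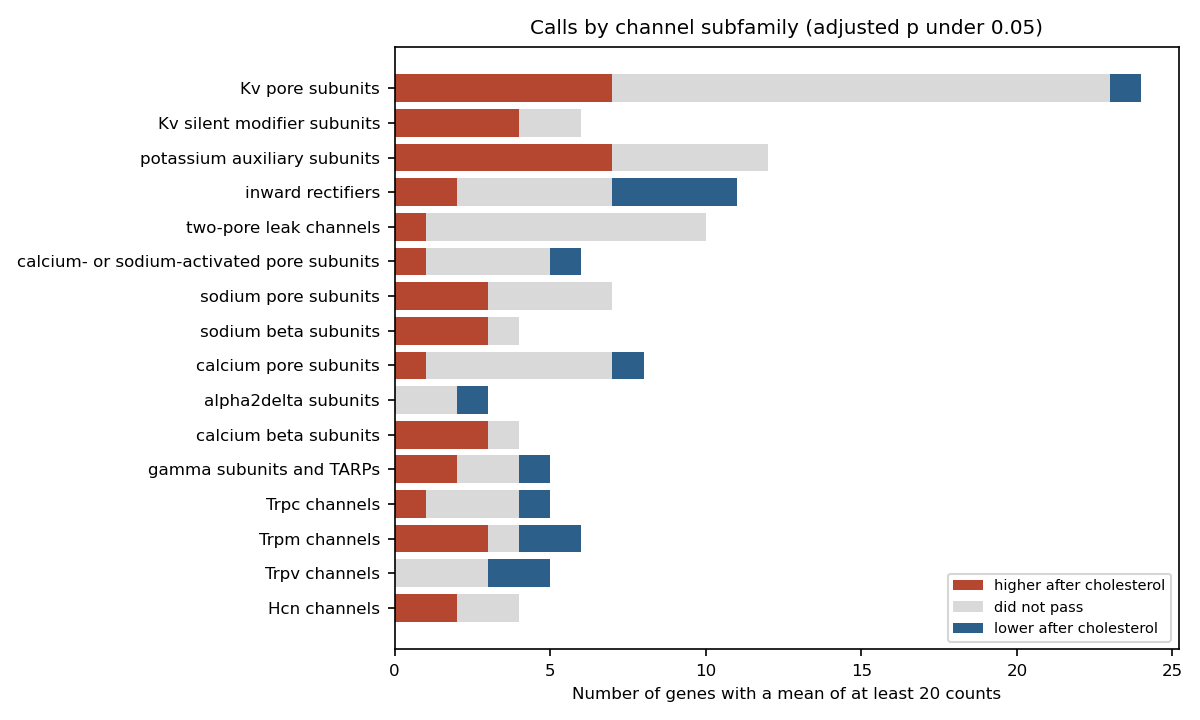
Number of described genes (horizontal axis) that were higher, did not pass or were lower after cholesterol in each of 16 subfamilies. Potassium auxiliary subunits had 7 higher of 12 and inward rectifiers 2 higher and 4 lower of 11. Over all genes tested, 20.5% were higher and 19.7% lower.

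Inward rectifiers were the subfamily with the most falls by number, 4 lower and 2 higher of 11. These are shares of 36.4% and 18.2%, against 19.7% and 20.5% of all genes tested. By share, the 5 Trpv genes had more falls (40.0%). Kcnj10 encodes the glial channel that sets the resting potential of mature oligodendrocytes and astrocytes and buffers extracellular potassium. It was the most abundant channel gene, at 96.3 ± 2.88 FPKM after cholesterol and 111 ± 1.54 FPKM after PBS (SD, n = 3 each). In scaled counts it stood at 625, 588 and 614 CPM in the cholesterol libraries, against 715, 714 and 698 CPM in the PBS libraries. The fall was small and the groups were apart, with log2 fold change -0.22 ± 0.033 (SE), adjusted p = 0.0005. Summed markers of mature oligodendrocytes and of astrocytes were higher in the same libraries and those of precursors lower. The part of these cells in the Kcnj10 result was not tested. Kcnj16, its usual partner, had only 40, 28 and 33 counts in the cholesterol libraries, against 42, 16 and 9 in the PBS libraries (log2 fold change 0.69, adjusted p = 0.357). Kcnj12, a strong rectifier and second in level, averaged 153 ± 10.3 CPM after cholesterol and 154 ± 3.99 CPM after PBS (log2 fold change -0.0095, adjusted p = 0.898).

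Genes of the G protein-gated rectifiers went opposite ways. Kcnj3, a core subunit of these channels, stood at 9.43, 9.09 and 7.39 CPM in the cholesterol libraries, against 4.35, 3.46 and 4.74 CPM in the PBS libraries, log2 fold change 1.04 ± 0.15 (SE), adjusted p = 0.000312. Kcnj5, a partner of Kcnj3 in heart and brain, stood at 0.706, 0.899 and 0.822 CPM in the cholesterol libraries, against 2.32, 3.27 and 2.28 CPM in the PBS libraries. That was the largest fall among the 120, log2 fold change -1.69 ± 0.23 (SE), adjusted p = 0.000246, and the highest cholesterol library lay well under the lowest PBS library. Kcnj6 and Kcnj9, the other 2 of the family, did not pass, with log2 fold changes of 0.45 and 0.38 (adjusted p = 0.0877 and 0.162). Next to Kcnj5 on chromosome 8, Kcnj1 lies on the opposite strand, and although it missed the mean of 20 counts it had 0, 5 and 5 counts in the cholesterol libraries, against 35, 21 and 38 in the PBS libraries (log2 fold change -3.11, adjusted p = 0.00747). Kcnj1 was tested only because of its PBS counts, so the direction of its call is not independent of that selection.

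Among strong inward rectifiers, Kcnj4 rose from a low level. It stood at 3.28, 2.83 and 3.13 CPM in the cholesterol libraries, against 0.850, 0.494 and 1.5 CPM in the PBS libraries, log2 fold change 1.70 ± 0.33 (SE), adjusted p = 0.00215. Kcnj14 fell, at 4.92, 4.07 and 5.79 CPM in the cholesterol libraries, against 7.31, 10.1 and 8.89 CPM in the PBS libraries (log2 fold change -0.83, adjusted p = 0.00195), but its deposited entry overlaps 8 other annotated genes, so its counts are uncertain. Kcnj2, a strong rectifier known in microglia among other cells, stood at 9.53, 13.2 and 11.6 CPM in the cholesterol libraries, against 13.2, 15 and 14.9 CPM in the PBS libraries (log2 fold change -0.33, adjusted p = 0.0479), and the groups overlapped. The Kcnj2 call ended without cholesterol replicate 1 or 3 or PBS replicate 1, 2 or 3 (adjusted p between 0.0597 and 0.156). Cholesterol replicate 2, where Kcnj2 was highest of the 3, also had the highest summed microglial markers of its group (101 FPKM, against 81.3 and 77.1 in the other 2), and their part in the Kcnj2 values was not tested.

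Leak channels with tandem pores passed least often, 1 of 10. Kcnk9, an acid-sensitive leak channel, rose and stood at 2.26, 1.71 and 1.85 CPM in the cholesterol libraries, against 0.893, 0.756 and 1.12 CPM in the PBS libraries, log2 fold change 1.07 ± 0.24 (SE), adjusted p = 0.0053. Kcnk10, the most abundant and a mechano- and lipid-sensitive channel, averaged 10.3 ± 0.191 CPM after cholesterol and 10.7 ± 0.671 CPM after PBS (log2 fold change -0.045, adjusted p = 0.718). Kcnk13, known as a main leak channel of microglia, averaged 2.37 ± 0.441 CPM after cholesterol and 3.04 ± 0.440 CPM after PBS (log2 fold change -0.36, adjusted p = 0.164). The Kcnk13 groups did not overlap, but the difference did not pass. Kcnk1 (log2 fold change 0.10, adjusted p = 0.757) and the mechanosensitive Kcnk2 (log2 fold change 0.20, adjusted p = 0.693), both known in glia, did not pass.

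Sodium channel genes were higher in 6 of 11 (54.5%) and lower in 0, against 20.5% and 19.7% of all genes tested. Their median log2 fold change was 0.44. Scn7a encodes the sodium-level sensor of glia, which is not opened by voltage, and stood at 5, 3.73 and 4.07 CPM in the cholesterol libraries, against 1.64, 1.22 and 1.46 CPM in the PBS libraries. Every cholesterol library was far above the highest PBS library, log2 fold change 1.56 ± 0.19 (SE), adjusted p = 0.00011. Scn3b, a beta subunit and the most abundant member, averaged 26.7 ± 0.464 CPM after cholesterol and 23.4 ± 0.884 CPM after PBS (log2 fold change 0.19, adjusted p = 0.0258). Scn4b, another beta subunit, had 37, 37 and 84 counts in the cholesterol libraries, against 14, 24 and 19 in the PBS libraries (log2 fold change 1.55, adjusted p = 0.0242). Scn4b met the rule on mean counts only through the cholesterol libraries, so its rise is not independent of that rule. The pores Scn4a, best known from skeletal muscle (log2 fold change 0.79, adjusted p = 0.0277), and Scn3a, an early neuronal channel (log2 fold change 0.44, adjusted p = 0.0467), also rose. Scn2b, a further beta subunit, did not pass (log2 fold change 0.081, adjusted p = 0.526). The Scn7a call held under all alternatives. The Scn3b call ended without cholesterol replicate 1 or PBS replicate 1, 2 or 3 (adjusted p between 0.0576 and 0.0951). That of Scn4b ended without cholesterol replicate 3 or PBS replicate 1 or 3 (adjusted p between 0.0654 and 0.144). The Scn4a call ended without cholesterol replicate 1 or 2 or PBS replicate 1, 2 or 3 (adjusted p between 0.0629 and 0.104). That of Scn3a ended without cholesterol replicate 1 or 3 or PBS replicate 1 or 2 (adjusted p between 0.084 and 0.167). Sodium channel genes called higher numbered 2 without PBS replicate 1, and 3 with limma on FPKM or without cholesterol replicate 1, PBS replicate 2 or PBS replicate 3.

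The other neuronal pores did not pass. Scn2a averaged 4.4 ± 0.548 CPM after cholesterol and 3.56 ± 0.255 CPM after PBS (log2 fold change 0.31, adjusted p = 0.119), Scn8a 17.3 ± 3.39 CPM after cholesterol and 17.9 ± 1.31 CPM after PBS (log2 fold change -0.048, adjusted p = 0.788) and Scn1a 3.73 ± 1.07 CPM after cholesterol and 2.58 ± 0.576 CPM after PBS (log2 fold change 0.53, adjusted p = 0.0936). Scn1a, Scn2a, Scn3a and Scn7a share a region of chromosome 3, where Scn7a had the largest change and Scn3a also passed. Of the neuron markers, 1 of 12 was higher in the same libraries, Gap43 (log2 fold change 0.22, adjusted p = 0.0027), and their part in the sodium channel values was not tested.

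Calcium channel genes changed little in size. Of 20, 6 were higher, 3 lower and 11 did not pass, none by 2-fold, with log2 fold changes between -0.37 and 0.56. The share that passed, 45.0%, was near the 40.3% of all genes tested (30.0% higher and 15.0% lower, against 20.5% and 19.7%). The cytoplasmic beta subunits, which bring the pore to the membrane, rose in 3 of 4 (75.0%, against 20.5% of all genes tested). Cacnb3 stood at 51.2, 48 and 49.6 CPM in the cholesterol libraries, against 36.2, 41.2 and 39.9 CPM in the PBS libraries, log2 fold change 0.34 ± 0.059 (SE), adjusted p = 0.00114, a call that held under all alternatives. Cacnb4 (log2 fold change 0.30, adjusted p = 0.0248) and Cacnb1 (log2 fold change 0.26, adjusted p = 0.0316) rose by less. The Cacnb4 call ended without cholesterol replicate 1 or 2 or PBS replicate 2 or 3 (adjusted p between 0.0632 and 0.0902). The Cacnb1 call ended without cholesterol replicate 3 or PBS replicate 1, 2 or 3 (adjusted p between 0.0538 and 0.103). Of the 8 pores, Cacna1b of N-type channels was lower (log2 fold change -0.35, adjusted p = 0.046) and Cacna1e of R-type channels higher (log2 fold change 0.56, adjusted p = 0.0471). The Cacna1b call ended without cholesterol replicate 2 or PBS replicate 1, 2 or 3 (adjusted p between 0.0746 and 0.135). The Cacna1e call ended without cholesterol replicate 1, 2 or 3 or PBS replicate 1 or 2 (adjusted p between 0.0522 and 0.15). The L-type pore Cacna1c, the main route of voltage-gated calcium entry in precursors, did not pass, averaging 23.9 ± 2.16 CPM after cholesterol and 24.3 ± 1.37 CPM after PBS (log2 fold change -0.02, adjusted p = 0.866). Cacna1h, the most abundant pore and a T-type channel, averaged 47.8 ± 3.35 CPM after cholesterol and 47.2 ± 0.369 CPM after PBS (log2 fold change 0.016, adjusted p = 0.851). Cacna1a of P/Q-type channels (log2 fold change -0.18, adjusted p = 0.126), the L-type pore Cacna1d (log2 fold change -0.11, adjusted p = 0.374) and the T-type pore Cacna1g (log2 fold change -0.063, adjusted p = 0.734) did not pass either. The Cacna2d genes encode extracellular subunits, and those of Cacna2d1 and Cacna2d2 bind gabapentin. Cacna2d2 among them fell, at 11.6, 11.4 and 12.6 CPM in the cholesterol libraries, against 15.5, 15.4 and 15 CPM in the PBS libraries (log2 fold change -0.37, adjusted p = 0.00381), while Cacna2d1 averaged 13.1 ± 1.19 CPM after cholesterol and 12 ± 1.28 CPM after PBS (log2 fold change 0.12, adjusted p = 0.401). The group had 2 higher genes with median scaling or without cholesterol replicate 1 or PBS replicate 3, 3 without cholesterol replicate 3 and 1 without PBS replicate 2. Lower genes numbered 1 without PBS replicate 1 or PBS replicate 2.

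Most of the transcript in the calcium group came from Cacng genes, whose expressed members are auxiliary subunits of AMPA receptors rather than of calcium channels. Cacng4 averaged 77.6 ± 4.15 FPKM after cholesterol and 85.1 ± 0.285 FPKM after PBS and Cacng7 75.3 ± 2.72 FPKM after cholesterol and 69.1 ± 1.43 FPKM after PBS. In scaled counts Cacng4 stood at 328, 303 and 334 CPM in the cholesterol libraries, against 357, 355 and 354 CPM in the PBS libraries, a small fall, log2 fold change -0.14 ± 0.040 (SE), adjusted p = 0.0164. Cacng7 was higher by a similar small amount (log2 fold change 0.11, adjusted p = 0.0419), and Cacng8, which overlaps a microRNA gene, by more (log2 fold change 0.46, adjusted p = 0.0239). Cacng5 did not pass (log2 fold change -0.058, adjusted p = 0.632). The Cacng4 call failed without PBS replicate 1 or 2 (adjusted p between 0.0565 and 0.0662). The Cacng7 call ended without cholesterol replicate 1 or 3 or PBS replicate 1, 2 or 3 (adjusted p between 0.07 and 0.153). It also ended with DESeq2 size factors, median scaling and the length correction (adjusted p up to 0.298). The Cacng8 call ended without cholesterol replicate 1 or PBS replicate 2 or 3 (adjusted p between 0.0563 and 0.0872).

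TRP genes were the one group with more falls than rises, 5 lower and 4 higher of 16. These are shares of 31.2% and 25.0%, against 19.7% and 20.5% of all genes tested. With median scaling the calcium group too had more falls, 3 against 2 rises. Without cholesterol replicate 1 the calls of Trpv2, Trpv6 and Trpc2 ended, and TRP falls no longer outnumbered rises. Trpm7, a magnesium- and zinc-permeable channel fused to a kinase and the most abundant TRP gene, stood at 64.4, 63.1 and 70.5 CPM in the cholesterol libraries, against 89.8, 98.9 and 93.9 CPM in the PBS libraries. The groups were apart, with log2 fold change -0.51 ± 0.053 (SE), adjusted p = 4.2e-05. Trpc6, a calcium-permeable channel opened by diacylglycerol, stood at 1.33, 2.81 and 2.14 CPM in the cholesterol libraries, against 5.7, 7.13 and 6.24 CPM in the PBS libraries. Its fall was the largest in the group, log2 fold change -1.60 ± 0.23 (SE), adjusted p = 0.000367. Trpm2, opened by ADP-ribose under oxidative stress and known in microglia, stood at 2.56, 2.87 and 2.45 CPM in the cholesterol libraries, against 5.37, 4.8 and 5.72 CPM in the PBS libraries, log2 fold change -1.01 ± 0.14 (SE), adjusted p = 0.000275, and overlaps 2 other annotated genes. These 3 calls held under all alternatives.

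Trpv2, a channel of macrophages and microglia as well as of some neurons, stood at 8.97, 12.8 and 8.18 CPM in the cholesterol libraries, against 13.4, 14 and 15.8 CPM in the PBS libraries (log2 fold change -0.53, adjusted p = 0.0196). Cholesterol replicate 2 was again the highest of its group, as for the summed microglial markers, and the part of microglia in the Trpm2 and Trpv2 values was not tested. Trpv6, a calcium-selective channel of epithelia, stood at 0.941, 0.707 and 1.27 CPM in the cholesterol libraries, against 1.62, 1.79 and 1.85 CPM in the PBS libraries (log2 fold change -0.85, adjusted p = 0.0239). The Trpv2 call ended without cholesterol replicate 1 or 3 or PBS replicate 3 (adjusted p between 0.0607 and 0.0798). The Trpv6 call ended without cholesterol replicate 1 or 2 or PBS replicate 2 or 3 (adjusted p between 0.0603 and 0.0726).

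The 4 TRP genes that rose were low in level. Trpm3, opened by pregnenolone sulfate and known in oligodendrocytes, stood at 4.08, 4.37 and 4.27 CPM in the cholesterol libraries, against 2.9, 3.2 and 2.67 CPM in the PBS libraries (log2 fold change 0.54, adjusted p = 0.0108). Its call held without any 1 library but not with limma on log2(FPKM + 0.1), where the adjusted p was 0.0729. Trpm4, a calcium-activated channel for monovalent cations, averaged 2.58 ± 0.495 CPM after cholesterol and 1.64 ± 0.241 CPM after PBS (log2 fold change 0.65, adjusted p = 0.0304). Trpm1, best known from the retina, had 30, 34 and 32 counts in the cholesterol libraries, against 13, 6 and 8 in the PBS libraries (log2 fold change 1.9, adjusted p = 0.0104). Like Kcng4, Trpm1 reached the mean of 20 counts only through the cholesterol libraries. It too was tested only because of its cholesterol counts, so the direction of its call is not independent of that selection. Trpc2, a pheromone transduction channel of rodents whose entry overlaps Rnf121, was higher by less (log2 fold change 0.38, adjusted p = 0.0429). The Trpm4 call ended without cholesterol replicate 2 or 3 or PBS replicate 1, 2 or 3 (adjusted p between 0.0509 and 0.101). The Trpm1 call ended without PBS replicate 2 (adjusted p = 0.053). The Trpc2 call ended without cholesterol replicate 1, 2 or 3 or PBS replicate 2 or 3 (adjusted p between 0.0537 and 0.12). Trpc1, a widely expressed partner of other Trpc pores and second in level, averaged 28.3 ± 1.62 CPM after cholesterol and 26.2 ± 1.22 CPM after PBS (log2 fold change 0.12, adjusted p = 0.191). TRP genes called higher numbered 1 with limma on FPKM or without PBS replicate 2 and 2 without cholesterol replicate 3 or PBS replicate 3, and those called lower numbered 3 without cholesterol replicate 1 or PBS replicate 3.

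Of the 4 Hcn genes, 2 were higher (50.0%, against 20.5% of all genes tested) and 0 lower (against 19.7%). Hcn2, the hyperpolarization-activated channel known in oligodendrocytes, was the fifth most abundant of the 120 genes and rose in every cholesterol library. It stood at 87.6, 75 and 75.1 CPM in the cholesterol libraries, against 46, 47.6 and 49.3 CPM in the PBS libraries, log2 fold change 0.73 ± 0.063 (SE), adjusted p = 1.47e-05, and made up 89.1% to 90.9% of the group's summed FPKM after cholesterol and 85.0% to 85.4% after PBS. Hcn3 (log2 fold change -0.089, adjusted p = 0.585) and Hcn4 (log2 fold change -0.16, adjusted p = 0.365) did not pass.

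**Figure D4:**
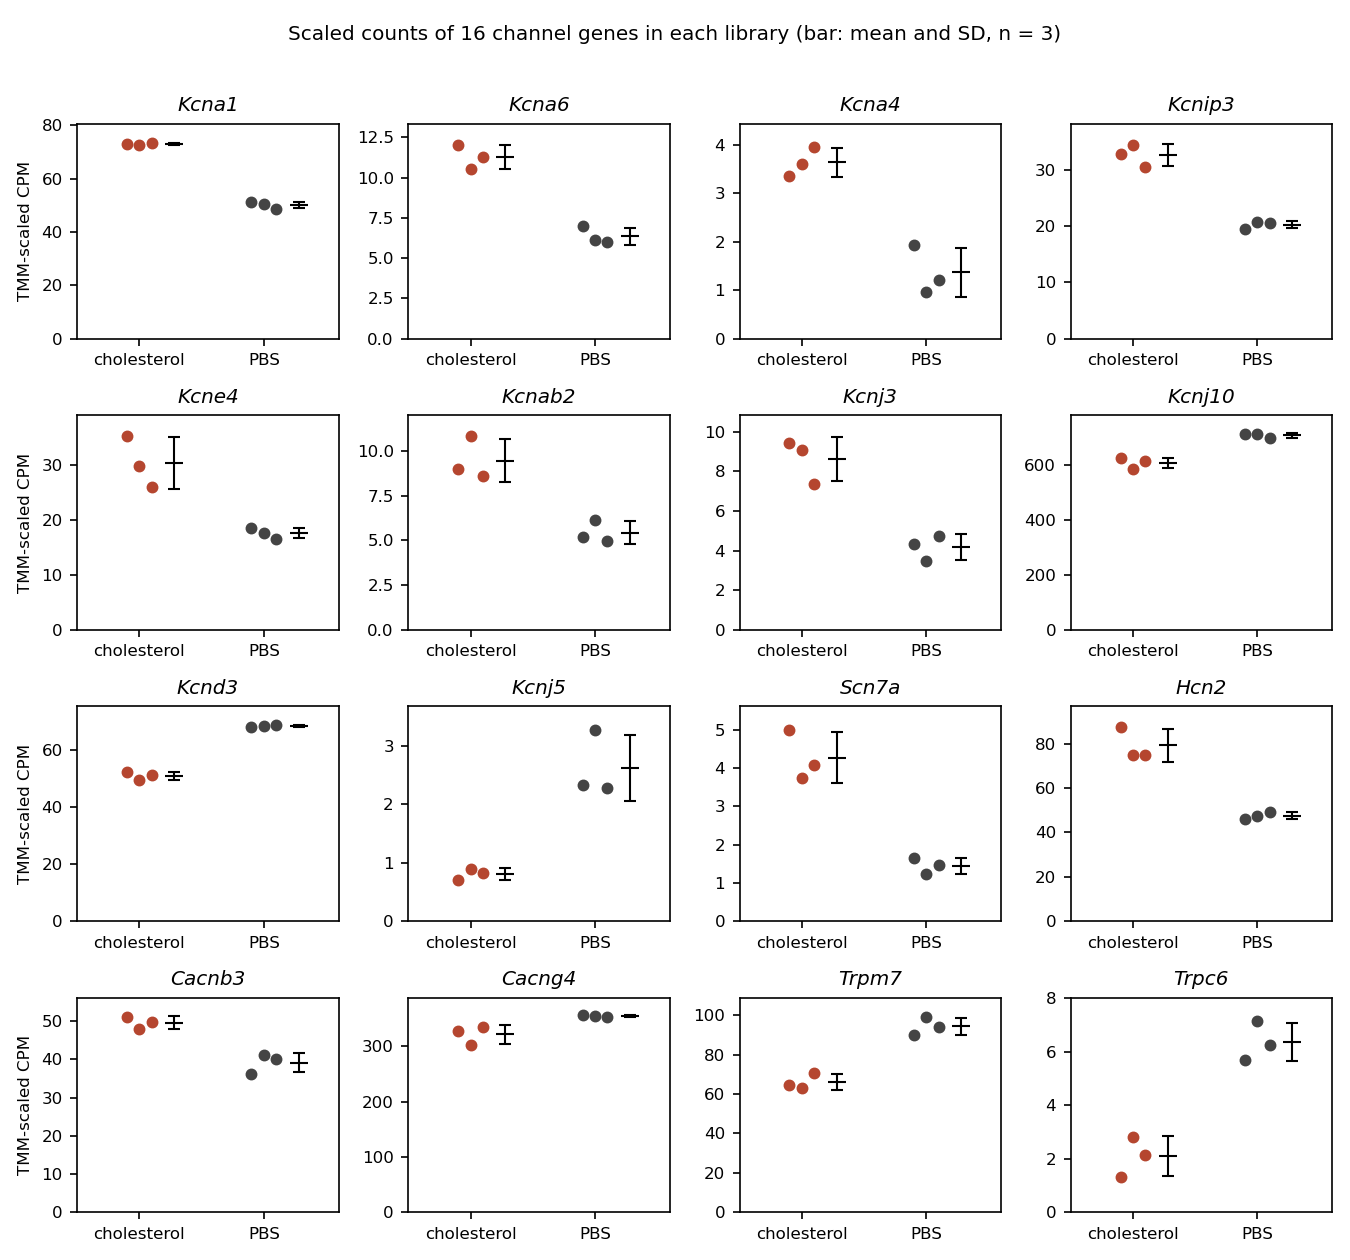
TMM-scaled CPM (vertical axes, from 0) of 16 channel genes in each of the 3 cholesterol and 3 PBS libraries, with bars for the mean and SD. The groups do not overlap in any panel; Kcnj10, Kcnd3, Kcnj5, Cacng4, Trpm7 and Trpc6 are lower after cholesterol and the other 10 are higher.

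Of the 30 matching genes under a mean of 20 counts, 12 passed the filter on low counts and 2 were called, Cacng1 (log2 fold change -3.32, adjusted p = 0.0188) and Kcnj1, both lower. Each had at most 5 counts in any cholesterol library and passed that filter only through its PBS libraries. The filter therefore favoured a lower call, and their direction is not independent of it. The genes just below the threshold were Kcnt2, Kcnj1 and Kcnk15, with means of 18.7, 17.3 and 16.8 counts. Those just above it were Trpm1, Kcng2 and Trpm6, with means of 20.5, 21 and 22 counts.

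Lists of other genes that handle ions are set against the 20.5% higher and 19.7% lower of all genes tested. Of 24 pumps and exchangers, 12 were higher and 5 lower, with a median log2 fold change of 0.14. For all genes tested at 5 FPKM or more, the shares were 24.7% and 27.6%. Beta subunits of the sodium-potassium pump, which restores the gradients that channels run down, were among the rises. Atp1b2, the glial one, averaged 341 ± 19.5 CPM after cholesterol and 229 ± 5.24 CPM after PBS (log2 fold change 0.57, adjusted p = 8.13e-06). Atp1b1 averaged 265 ± 7.71 CPM after cholesterol and 199 ± 8.05 CPM after PBS (log2 fold change 0.41, adjusted p = 3.13e-05). Slc12a2, which brings sodium, potassium and chloride into cells, averaged 346 ± 22.8 CPM after cholesterol and 212 ± 5.33 CPM after PBS (log2 fold change 0.71, adjusted p = 3.87e-06). Atp1b3 (log2 fold change 0.15, adjusted p = 0.0351) rose by less, did not pass with median scaling, the length correction or no filter (adjusted p = 0.137, 0.34 and 0.052), and the call was lost without cholesterol replicate 1 or 2 or PBS replicate 1, 2 or 3 (adjusted p between 0.0603 and 0.116). Astrocyte markers were higher in the same libraries, and their part in the pump values was not tested. Among the falls were Atp2a2, the calcium pump of the endoplasmic reticulum (log2 fold change -0.31, adjusted p = 0.000179), Slc8a2, a sodium-calcium exchanger (log2 fold change -0.47, adjusted p = 7.5e-05), and Slc12a4, a potassium-chloride cotransporter (log2 fold change -0.51, adjusted p = 0.000419).

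Genes of intracellular calcium release and store-operated entry were higher in 1 of 20 and lower in 4, with a median of -0.0028, and the share that fell was near the background of 19.7%. Itpr1, a receptor that releases stored calcium, averaged 7.55 ± 0.732 CPM after cholesterol and 12.8 ± 0.624 CPM after PBS (log2 fold change -0.77, adjusted p = 0.000197), and Tpcn2, a lysosomal cation channel, 44.6 ± 9.57 CPM after cholesterol and 74.1 ± 1.66 CPM after PBS (log2 fold change -0.73, adjusted p = 0.000697). Itpr2, a second release receptor, was also lower (log2 fold change -0.22, adjusted p = 0.00219), while the endolysosomal channel Mcoln3 was higher (log2 fold change 1.85, adjusted p = 0.00826). The Itpr2 call ended with the length correction (adjusted p = 0.0976).

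Partners of Kv and sodium channels had 4 higher and 2 lower of 12, with a median of 0.22. Cntnap2, which clusters Kcna1 and Kcna2 along axons, averaged 4.99 ± 0.545 CPM after cholesterol and 2.87 ± 0.282 CPM after PBS (log2 fold change 0.80, adjusted p = 0.00158). Lgi1, a secreted protein found with Kcna1 channel complexes (log2 fold change 1.34, adjusted p = 0.000364), and the membrane scaffold Ank2 (log2 fold change 0.29, adjusted p = 0.000249) were also higher. Dpp10, a partner of Kcnd pores, averaged 19.2 ± 1.76 CPM after cholesterol and 26.2 ± 1.5 CPM after PBS (log2 fold change -0.45, adjusted p = 0.00142). Intracellular sodium channel partners of the Fgf family differed in direction: Fgf13 was higher (log2 fold change 0.38, adjusted p = 0.00407) and Fgf11 lower (log2 fold change -0.29, adjusted p = 0.0142). The Fgf11 call was lost without cholesterol replicate 1 or 2 or PBS replicate 2 (adjusted p between 0.054 and 0.0641).

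Other cation channels had 3 higher and 5 lower of 18 tested, with a median of -0.077. Nalf1 (log2 fold change 0.75, adjusted p = 0.00119) and Unc79 (log2 fold change -0.47, adjusted p = 0.000161), both subunits of the sodium leak channel, moved in opposite directions. Of mechanosensitive channels, Tmem63b was higher (log2 fold change 0.22, adjusted p = 0.00185) and Piezo1 lower (log2 fold change -0.60, adjusted p = 0.0064). The proton channel Hvcn1, known in microglia, was lower (log2 fold change -0.38, adjusted p = 0.00842), and the ATP-gated P2rx4 was higher (log2 fold change 0.17, adjusted p = 0.0404). The P2rx4 call ended without cholesterol replicate 1, 2 or 3 or PBS replicate 1 or 3 (adjusted p between 0.0546 and 0.15), and with median scaling, the replicate block and the length correction (adjusted p = 0.149, 0.0716 and 0.127).

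Chloride channels and transporters had 4 higher and 5 lower of 17 tested, with a median of 0.043. The rises were led by Ano4 (log2 fold change 0.68, adjusted p = 1.52e-05), Lrrc8b of the volume-regulated channel (log2 fold change 0.41, adjusted p = 0.000549) and the exchanger Clcn4 (log2 fold change 0.15, adjusted p = 0.018). The falls were led by the endolysosomal exchangers Clcn6 (log2 fold change -0.37, adjusted p = 0.000232) and Clcn7 (log2 fold change -0.39, adjusted p = 0.00024) and by the lipid scramblase Ano6 (log2 fold change -0.29, adjusted p = 0.000311). The Clcn4 call ended without cholesterol replicate 1 or PBS replicate 1 or 3 (adjusted p between 0.0719 and 0.084) and with median scaling (adjusted p = 0.106).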

How the data were processed

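Channel genes and all lists used here were chosen with earlier results of these data known, so none of the counts is independent of them. Per the labels' protocols, RNA was selected by poly(A) and read in pairs from strand-marked libraries. Tools listed in the submitters' processing notes, without roles, are StringTie 2.1.6, HISAT2 2.2.1, cutadapt 1.9, edgeR and DESeq2, and the build listed is rn6. Whether counting used the strand was not given in the sources used here, so overlapping genes are named. The deposited table holds whole-number counts and FPKM per gene, per the file headers, both made by the authors.

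The test on counts used edgeR 4.0.16 (R 4.3.3). In it, filterByExpr kept 16182 of 20422 genes, with TMM scaling, glmQLFit and glmQLFTest, two-sided, no covariate, and Benjamini-Hochberg adjustment over all genes tested. A gene passed at an adjusted p under 0.05. Scaled CPM, its SD over 3 libraries and the SE (log2 fold change over the square root of F) were computed from the counts. A level of 3 counts is 0.0425 to 0.047 CPM, and such floors cover counting error only. Alternatives were no filter, a mean of 20 counts, DESeq2 1.42.0 size factors, median scaling, DESeq2's Wald test, limma 3.58.1 on log2(FPKM + 0.1), the replicate block, a correction for gene length, and each library left out. The method was checked on simulated data. It called 75 of 100 genes changed 2-fold, 41 of 99 genes changed 1.3-fold, and 13 unchanged genes. Genes that did not pass can therefore include real changes, most of all small ones. The naming rule took, per group, up to 8 called genes in each direction with the smallest p, the 4 with the highest FPKM and a fixed set of names. Other called genes, Kcna2, Kcnj6, Kcnj9, Atp1b1, Atp1b3, Fgf13 and Pkd1 were named after their values were seen, as was the promoter set. Some genes are counted but not reported by name here.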

Additional observations from a re-analysis of the deposited data

How the results depend on the processing

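Of the 54 channel calls, 46 passed with no filter on low counts, 54 with a mean of 20 counts, 52 with DESeq2 size factors, 43 with median scaling, 50 with DESeq2's Wald test, 39 with limma on FPKM, 49 with the replicate block and 48 with the length correction, and none changed direction there or with a library left out. Lost calls had adjusted p between 0.0502 and 0.298 in those settings, and the cause was not tested. Higher genes moved to 1 of the Hcn group with no filter, to 2 of the calcium group with median scaling, and with limma to 3 sodium, 1 TRP and 1 Hcn genes. With each library left out in turn, which also leaves fewer samples, 23 to 31 channel genes were higher and 9 to 12 lower. The ranges were 15 to 18 and 4 to 5 for potassium, 2 to 7 and 0 for sodium, 1 to 4 and 1 to 4 for calcium, 1 to 4 and 3 to 5 for TRP, and 1 to 2 and 0 for Hcn genes.

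Replicate numbers are shared by both groups, but deviations of same-numbered libraries correlated at 0.00123, -0.0375 and -0.0261, and not every library correlated best with its own number. No pairing was visible in these deviations. Such a check cannot exclude that same-numbered libraries share a culture or animal, which the labels do not tell. With the replicate block, 37 channel genes were higher and 14 lower.

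Some genes that did not pass changed sign in log2 fold change. Kcnj12 had 0.0001 with limma on log2(FPKM + 0.1) and 0.0102 with the length correction and -0.0642 to 0.0335 with a library left out. Kcnk2 had -0.2036 to 0.445 with a library left out. Cacng5 had -0.1198 to 0.0044 with a library left out. Kcnk10 had -0.0778 to 0.0083 with a library left out. Kcnq3 had -0.1035 to 0.1939 with a library left out. Scn8a had 0.0269 with the length correction and -0.2199 to 0.0503 with a library left out. Cacna1c had 0.1277 with the length correction and -0.068 to 0.0535 with a library left out. Kcnn4 had -0.2955 to 0.126 with a library left out. Kcnk1 had -0.0631 to 0.1974 with a library left out. Cacna1h had -0.0386 with median scaling and -0.0317 to 0.0701 with a library left out. Cacna1g had 0.0364 with the length correction. Kcna3 had -0.0281 with median scaling and -0.0219 to 0.0932 with a library left out. Of related genes that passed, Pkd1, a polycystin, changed sign with the length correction, at 0.0025 against -0.15. Depth limits the genes of low level: the 30 channel genes under a mean of 20 counts were not described, and 18 of them were too low to test.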
